A study of Acipenser transmontanus and Acipenser medirostris with 18 samples.

Results

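A set of 159 PacBio loci was counted in epithelial cultures of green sturgeon (Acipenser medirostris) and hardly at all in epithelial cultures of white sturgeon (A. transmontanus). A PacBio locus is a group of full-length transcripts that were aligned to the same place in the sterlet (A. ruthenus) genome, and its count is the number of full-length reads over all of its transcripts. A locus was chosen when it carried the name of a sterlet protein, had at least 50 counts over the 6 green cultures and had at most 2 counts over the 5 white cultures. Of 13249 loci in the data, 12340 carried a protein name, 2869 of these had at least 50 green culture counts, and the 159 chosen loci were 5.54% of the 2869. The loci were thus chosen by their counts in the green and white cultures, and the difference between those cultures is given below as a description, with no test. The loci are called green-culture loci here rather than green-only loci, because 42 of them had 1 count and 34 had 2 counts in the white cultures, against 83 with none, and because 92 of them were counted in white sturgeon tissue.

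The 18 libraries fall into 4 groups. The 6 green cultures came from the upper palate of a male (IM) and of a female (IF), the mouth rim of a male (MM), the esophagus of a male (EM), and the ampullae of Lorenzini of a female (AF) and of a fish whose sex is not labelled (GA1). A single further green library held cultured fibroblasts and adipocytes of a female (FAF), the 6 white tissue libraries came from barbel (WB2), ampullae (WA2), upper palate (WI1), mouth rim (WM2), esophagus (WE1) and dorsal skin (WDS1), and the 5 white cultures came from mouth rim (WM, W8 and the dodecaploid W12) and skin (WS1, WS2). All fish but the dodecaploid one are labelled octoploid. All cultures were primary cells grown to confluence with fetal bovine serum, epidermal growth factor, insulin, hydrocortisone and the inhibitor Y27632. White cultures were started from explants before trypsinization and green cultures after it, so species and this step cannot be told apart. Ages are not labelled, and neither is the fish behind each library, so that libraries which share a fish cannot be recognised and the spread between libraries may be partly technical. No library of green tissue was analysed here, and no white culture came from palate, esophagus or ampullae.

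The epithelia of the sturgeon mouth, palate and skin are stratified sheets whose cells are held together by keratin filaments, desmosomes and tight junctions. The ampullae of Lorenzini are electrosensory pits set in such an epithelium, and the esophageal lining also secretes mucus. Sturgeons descend from ancestors that duplicated their whole genomes, so that many of their genes exist in several similar copies, and a read can be assigned to any copy it resembles most.

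Library totals ran from 124136 to 302286 counts in the green cultures, with 243012 in FAF, from 29797 to 204203 in the white tissues and from 90002 to 129568 in the white cultures. A single count stood for 0.331 to 0.806 counts per 100000 in a green culture, for 0.49 to 3.36 in a white tissue and for 0.772 to 1.11 in a white culture. Markers of epithelium (37 loci of keratins, desmosomal proteins and their partners) held 0.989% to 9.65% of the counts in the green cultures, 0.102% in FAF, 4.06% to 19.2% in the tissues and 4.4% to 10.7% in the white cultures. Markers of connective tissue (12 loci) held 3.71% of FAF, 1.26% of GA1 and 0.0354% to 0.092% of the other 5 green cultures. Of 4 adipocyte marker loci, 1 was counted in FAF, at 0.00123% of that library. The same list held 0.000464% to 0.00893% of the green epithelial cultures and 0.0152% to 0.0322% of the white ones. It did not set FAF apart and cannot show whether the adipocytes named on its label were present. GA1 was numbered in the same set of libraries as the white cultures, and the other green cultures in a set with FAF.

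The green-culture loci together held 23067 counts in the green cultures, which was 1.78 ± 0.288% of a library (SD, n = 6; range 1.37% to 2.10%). Over the white cultures they held 110 counts, or 0.0199 ± 0.00743% of a library (n = 5), where the green share would have given 9904. The rule fixed this gap. The share of the loci was lowest in AF among the green cultures (1.37%, Wilson 95% interval 1.33% to 1.41%) and highest in WM among the white ones (0.0321%); all intervals from counts given here cover counting error only. In GA1 the loci held 1.82% of the counts and 149 of the 159 were counted, and the 5 white cultures of the same library set counted 11 to 27 of them. At the mouth rim, the site that both species share, 110 of the loci had at least 10 counts in MM; these held 3438 counts in MM and 43 in the 3 white mouth rim cultures, where the MM share would have given 5369. The rule used these libraries too, so it also fixed the low white counts in the GA1 and mouth rim comparisons. A locus with exactly 50 green counts would have had 21.5 counts over the white cultures at the green share. The counterpart rule with the species exchanged, at least 50 white culture counts and at most 2 green ones, was met by 62 of 1785 loci, or 3.47%.

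The thresholds split loci with nearly the same values. Just inside the lower limit, the checkpoint kinase Chk1 (PB.24728), a C11orf24 homolog (PB.19183) and an uncharacterized protein (PB.4285) each had 50 green counts. Just outside it, a DBH-like monooxygenase (PB.18499), calcium homeostasis modulator 3-like (PB.8076) and the telomere protein POT1 (PB.7314) had 49 green counts each and 1, 2 and 1 white culture counts. At the other limit, the translocon protein TRAM1-like (PB.3491, 367 green counts), the proteasomal ubiquitin receptor ADRM1-like (PB.19688, 357) and the splicing factor TRA2B-like (PB.10398, 305) had 2 white culture counts. An uncharacterized protein (PB.20605, 718), an actin (PB.7823, 475) and an interferon-induced IFIT1-like protein (PB.12505, 269) had 3 and were left out, as were 18 further loci among the 21 with 3 white counts.

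Counts were found in 6 of 6 green cultures for 126 green-culture loci (79.2%), fewer than the 97.0% of the other 2710 loci with at least 50 green counts, and in 5 for 17 more. These shares are not matched for counts, since 61.0% of the green-culture loci had under 100 green counts, against 33.0% of the others. The median green-culture locus had 83 green counts (quartiles 61 and 137), and its most abundant library held 33.3% of them. The 10 loci with most counts held 29.2% of the 23067. A locus had a median of 4 transcripts (range 1 to 31), compared with 9 for the other 2710 loci with at least 50 green counts. Transcripts were counted over all libraries, white ones included, and the other loci had a median of 149 green counts. This difference is thus shaped by the choice of loci and is not a result about them.

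Several of the most abundant loci encode proteins of the secretory and endosomal membranes. CHMP6 (PB.15509), a subunit of the ESCRT-III complex that sorts membrane proteins into multivesicular bodies, led the set with 1571 green counts, distributed as 122 in IM, 291 in MM, 320 in EM, 354 in IF, 315 in AF and 169 in GA1. It was among the most even of the loci, at 121 ± 17.8 counts per 100000 (SD, n = 6), and had 242 counts in FAF, 3 over the tissues and 0 in the white cultures, where the green share would have given 674. Sec23A (PB.6096), a coat protein of the vesicles that leave the endoplasmic reticulum, had 55, 55 and 57 counts in IM, MM and EM, 181 in IF, 28 in AF and 0 in GA1. TRAM1-like, which helps nascent proteins cross into the endoplasmic reticulum, had 48, 82, 82, 59, 50 and 46 counts in IM, MM, EM, IF, AF and GA1, or 16.5 (AF) to 38.7 (IM) per 100000, and 106 in FAF. PB.3491 was not counted in any tissue, although the green share would have given 182 counts there. The 2 other loci of the name together had 5 green culture, 28 white culture and 10 tissue counts.

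The proteins of the cell surface and of cell contacts included some of the clearest differences from the fibroblast library. Claudin-1-like (PB.10792), a protein that seals tight junctions between epithelial cells, was nearly level over the green cultures at 24.9 ± 4.38 counts per 100000, with 35, 55, 51, 60, 93 and 29 counts in IM, MM, EM, IF, AF and GA1. It had 0 counts in FAF and in every tissue, where 160 would have followed from the green share, and 1 in the white cultures. STYK1-like (PB.15319), a membrane-anchored kinase, showed the same absence, with 26 to 99 counts in each green culture and 0 in FAF, the tissues and the white cultures. CD59-like (PB.20545), named for a surface protein that blocks the terminal step of complement, had 312 of its 511 counts in AF, 23 to 64 in IM, MM, EM and IF, and only 1 in GA1, so the 2 ampullae cultures stood at opposite ends of its range. It had 1 count in FAF and 0 in all white libraries.

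Among regulators of growth and the cytoskeleton, PHLDA2 (PB.19198), a small lipid-binding protein known in mammals as the product of an imprinted growth-restraining gene, had 47, 101, 192, 168, 76 and 39 counts in IM, MM, EM, IF, AF and GA1, 105 in FAF and 1 over the tissues. Its share in FAF was 0.898 of that in the green cultures (95% interval 0.723 to 1.11). ABRACL (PB.6278), a small actin-related regulator of cell movement, had 29 to 179 counts in each green culture and was counted in all 6 tissues as well, from 1 in WE1 to 13 in WDS1. SPRYD7-like (PB.9414), of which little is known, had 20 to 79 counts in each green culture, 15 in FAF and none in any white library.

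The 7 loci described next, of the most abundant ones, act in metabolism, protein synthesis, RNA splicing and protein quality control and were counted in every green culture and in FAF. The branched-chain aminotransferase (PB.13211), which starts the breakdown of leucine, isoleucine and valine, had 82 and 141 counts in IM and MM, 85, 57 and 42 in EM, IF and AF, 44 in GA1 and 19 in FAF. The lysosomal enzyme alpha-N-acetylgalactosaminidase (PB.12947) had 58, 72, 105, 103 and 49 counts in IM, MM, EM, IF and GA1 and 24 in AF. Both loci had 0 counts in every white library, culture and tissue, where the tissues alone would have held 223 and 203 counts at the green share. The aminotransferase had another locus of the same name, PB.7396, with 0 green culture, 2 white culture and 2 tissue counts. The translation initiation factor eIF1b-like (PB.22704) had 204 counts in IF, 36 to 73 in the other 5 green cultures, 101 in FAF and none in any white library. HSPA14-B-like (PB.13360), a relative of the HSP70 chaperones that works at the ribosome in mammals, had 167 counts in AF, 17 in GA1, 46 to 82 in the other green cultures and 62 in FAF. RPL15 (PB.4526), a protein of the large ribosomal subunit, had 38, 60, 88, 62 and 95 counts in IM, MM, EM, IF and AF, 14 in GA1 and 92 in FAF, and 35 over the tissues. ADRM1-like had 26 to 106 counts in each green culture, and TRA2B-like 24 to 93, with 35 over the tissues.

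**Figure D1:**
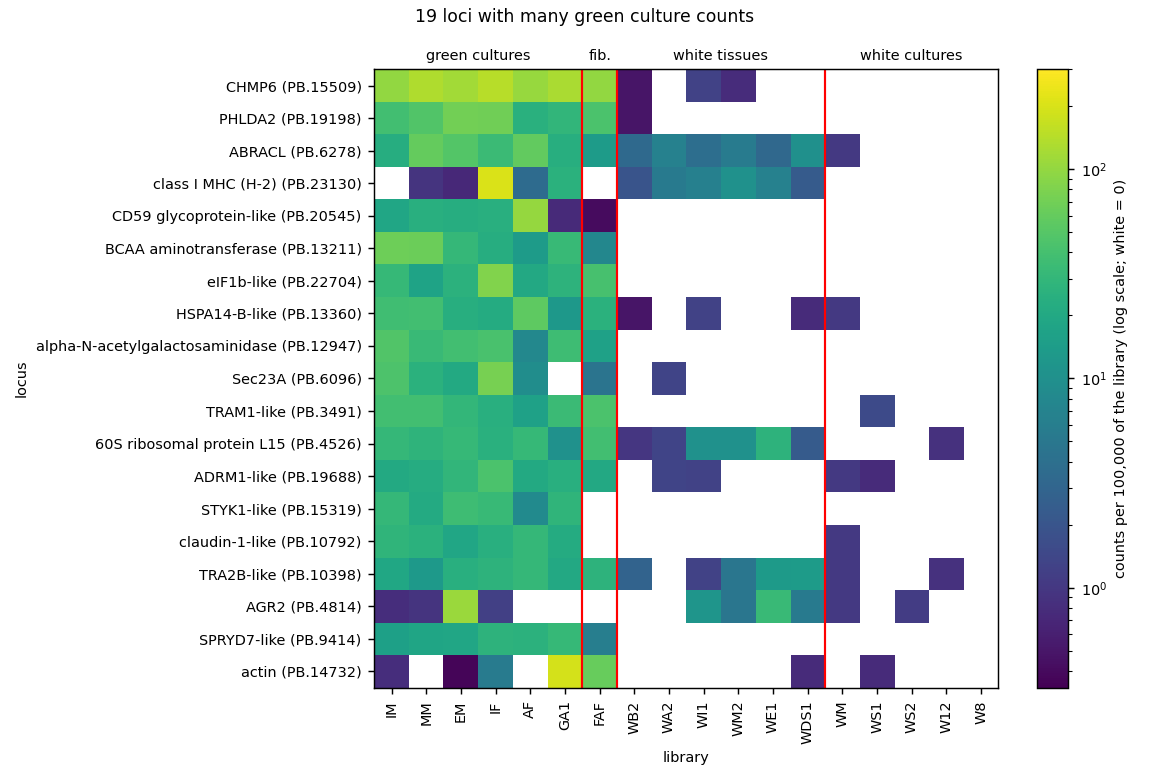
Counts per 100000 of each library (colour, log scale, white for 0) for 19 of the 20 green-culture loci with most green counts, with 1 column for each of the 18 libraries and red lines between green cultures, fibroblasts and adipocytes (fib.), white tissues and white cultures. Most loci fill all 6 green columns, and claudin-1-like, STYK1-like, class I MHC and AGR2 are blank in the fibroblast and adipocyte library. ABRACL, class I MHC, RPL15, TRA2B-like and AGR2 are also coloured in 4 or more tissues.

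The white tissues and FAF were not used to choose the loci and show how far the pattern reached. In the 6 tissues the green-culture loci held 1048 counts, 0.178 ± 0.0562% of a library (SD, n = 6; range 0.107% to 0.248%), against 11420 at the green share. None of the 6 tissues overlapped with the green cultures, whose lowest share was 1.37%. The green level is a value that the rule used, and the tissues are of the species whose cultures it required to be low. Part of the gap, here and at the matched sites below, thus follows from the choice of loci. Of the 159 loci, 67 (42.1%) had 0 counts in every tissue, compared with 1.40% of the other 2710 loci with at least 50 green counts. Among loci with under 100 green counts, 39 of 97 green-culture loci (40.2%) and 14 of 893 others (1.57%) were at 0 in the tissues. The median ratio of tissue share to green culture share was 0.017 for the green-culture loci and 0.609 for the others. RNA from whole tissue cannot tell fewer cells of a type from less RNA per cell, and species, culture and library set differ together in this comparison. The labels also name separate consensus transcripts for the white libraries and for the green ones, FAF included. Species and this difference in processing cannot be told apart.

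The tissue shares were low at matched sites too. At the esophagus, 135 green-culture loci had at least 10 counts in EM, and 20 of these (14.8%) were counted in WE1, compared with 69% of 2496 other loci. The share of the green-culture loci in WE1 was 0.119 of that in EM, against 0.6 for the others. For the palate, mouth rim and ampullae the tissue shares were 0.0897, 0.139 and 0.0863 of those in the cultures of the site, against 0.735, 0.844 and 0.839 for the other loci.

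In FAF, a green sturgeon library of other cells, the green-culture loci held 4143 counts or 1.70% of the library (Wilson 95% interval 1.65% to 1.76%). The uncharacterized PB.4285 alone gave 1034 of these counts. The 3109 counts of the others were 1.28% of the library, which is under the range of the green epithelial cultures (1.37% to 2.10% with PB.4285), whereas 1.70% lies within it. Counts were found there for 122 loci (76.7%), compared with 92.4% of the other 2710. The share in FAF was at or above that in the green cultures for 48 loci (30.2%, against 47.3% of the others), whereas the share in the tissues reached that level for 6 (3.77%, against 29.6%). A total of 51 loci (32.1%) were counted in FAF and in no tissue, compared with 1.25% of the others. Another 21 (13.2%, against 7.45%) were counted in tissues and not in FAF, 71 (44.7%, against 91.1%) in both and 16 (10.1%, against 0.148%) in neither. There were 33 loci (20.8%, or 1.15% of the 2869) counted in all 7 green libraries and in none of the 11 white ones. None of the other 2710 could be among them, because the rule leaves those with over 2 white culture counts.

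**Figure D2:**
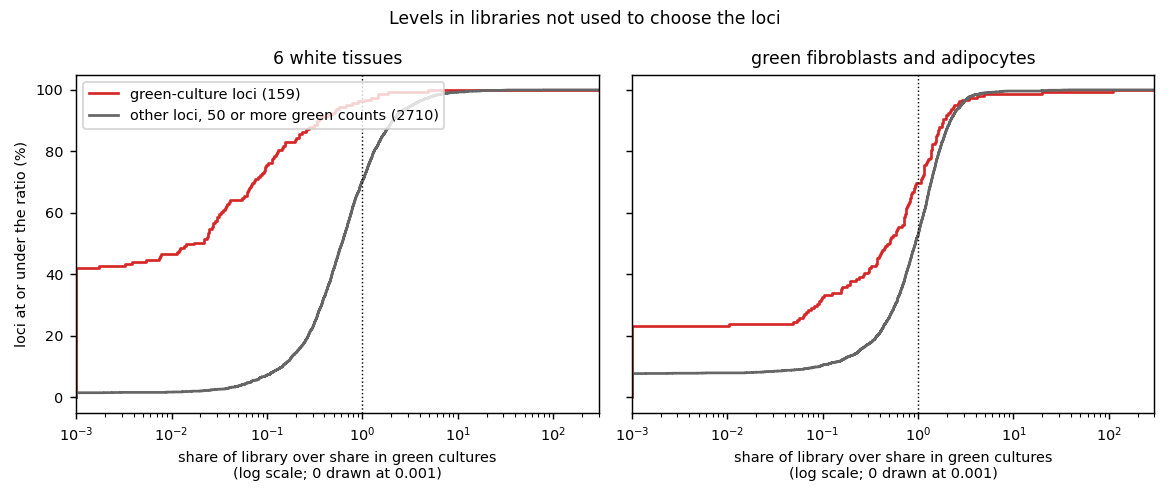
Cumulative percentage of loci (y axis) by the ratio of a locus's share in the white tissues (left) or in the green fibroblast and adipocyte library (right) to its share in the green cultures (x axis, log scale, 0 drawn at 0.001), for the 159 green-culture loci and the 2710 other loci with at least 50 green counts. In the tissues 42.1% of the green-culture loci sit at 0, against 1.40% of the others, and in the fibroblast and adipocyte library the curves lie closer together.

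The tissue counts were concentrated in a few green-culture loci of mixed function, since the 10 highest held 585 of the 1048 counts (55.8%). IRF1-like (PB.21984), a transcription factor of the interferon response, was the extreme case, with 128 tissue counts and 1 in the white cultures. It had 43, 4, 20, 43, 14 and 4 counts in WB2, WA2, WI1, WM2, WE1 and WDS1, which is 3.11 to 47.0 per 100000, and 3, 16, 20, 12, 0 and 2 in IM, MM, EM, IF, AF and GA1, which is 0 to 7.43. Its tissue share was 4.88 of its green culture share (95% interval 3.52 to 6.85), although the tissue and culture ranges overlapped, and FAF had 0 counts. A list of 21 immune cell marker loci held 0.226% to 0.75% of the tissue libraries, 0.122% to 0.294% of the green cultures and 0.0939% to 0.139% of the white cultures; its part in the IRF1-like level was not tested.

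Clusterin-like (PB.6838), a secreted chaperone, had 33, 13, 0, 21, 4 and 12 counts in WB2, WA2, WI1, WM2, WE1 and WDS1, 1 in the white cultures and 69 in FAF. DENND2D-like (PB.23716), an activator of Rab GTPases, had 62 tissue counts, of which 35 were in WDS1, and 3 to 50 counts in each green culture. The adenylosuccinate synthetase isozyme 2-like (PB.5224), which makes a precursor of AMP, had 61 tissue counts and 66 green ones, and the phospholipid flippase PB.22027 had 48 and 66. Rab-11A-like (PB.23230), a GTPase of recycling endosomes, had 7 to 15 counts in each green culture, or 2.98 to 7.25 per 100000, and had 47 over the tissues with none in WE1. These 4 loci and clusterin-like, with IRF1-like, were the 6 whose tissue share reached their green share, but for adenylosuccinate synthetase alone among the other 5 did the counting interval exclude equality (ratio 1.87, 1.30 to 2.69). Its levels nevertheless overlapped, at 3.36 to 15.6 counts per 100000 in the tissues and 0.331 to 10.6 in the green cultures, and the green level in all these ratios is a value that the rule used. CD276-like (PB.20113), an immune checkpoint protein of the B7 family, had 50 tissue counts and 4 to 54 in each green culture. An H-2 class I histocompatibility antigen (PB.23130), which presents peptides to T cells, had 31 tissue counts, from 2 in WE1 to 13 in WM2, and was counted in all 6 tissues.

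Some green-culture loci owed their counts to 1 library. A single green culture held over 50% of the green counts for 25 loci (15.7%, against 4.87% of the other 2710). It held over 90% for 11 loci (6.92%, against 0.332%), namely EM for 5, GA1 for 5 and IF for 1. No white culture came from esophagus, ampullae or palate, so species and site cannot be told apart for these 11. For such loci the green counts describe a single culture and have no replicate.

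The esophagus culture EM held nearly all green counts of 5 loci. AGR2 (PB.4814), a disulfide isomerase that mucus-producing cells need to fold mucins in mammals, had 296 of its 302 counts in EM, 1, 2 and 3 in IM, MM and IF and 0 in AF and GA1. The calcium-binding S100-P-like protein (PB.2507) had all of its 250 counts in EM, and claudin-18-like (PB.15988), a tight junction protein typical of stomach and lung epithelium in mammals, had all of its 84 there. An uncharacterized protein (PB.6103) had 174 of 176 in EM. RERG-like (PB.13042), a Ras-related inhibitor of growth, had all of its 52 counts in EM; it was the last of the 5 such loci and was named after its values were seen. AGR2 was also counted in white tissue, with 10 counts in WE1, 9 in WI1, 6 in WM2 and 7 in WDS1 and 0 in WB2 and WA2. In WE1 this was 33.6 counts per 100000, against 108 in EM. S100-P-like, claudin-18-like and PB.6103 had 0 counts in WE1, where the EM share would have given 27.2, 9.14 and 18.9. A list of 3 mucous cell marker loci held 0.141% of WE1 and 0.000365% of EM, so these 3 loci were close to absent in the culture. That does not mean a culture without mucus, since the paper describes abundant mucus from its esophageal cultures, seen as viscous medium.

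The GA1 culture carried another group, which it shared in part with the fibroblasts and adipocytes. CCN2a (PB.6184), a matricellular protein also known as connective tissue growth factor, had all of its 74 green culture counts in GA1 and 273 in FAF. PB.4285 had 48 of 50 in GA1 and 1034 in FAF. CLIC4 (PB.22210), an intracellular chloride channel protein, had 92 of 102 in GA1 and 31 in FAF, with 3, 5 and 2 in MM, EM and IF. An actin locus (PB.14732) had 257 of 273 in GA1 and 149 in FAF, and a further actin locus (PB.5256) had all of its 94 green culture counts in GA1 and 1 in FAF. In proportion to library size, CCN2a stood at 55.3 counts per 100000 in GA1 and 112 in FAF, and PB.4285 at 35.8 and 425. The connective tissue markers held 1.26% of GA1, at most 0.092% of the other 5 green cultures and 0.123% to 0.316% of the white cultures. Of the 12 marker loci, 11 were counted in GA1 and 10 in the other 5 green cultures. The part of these markers in the levels of the GA1 loci was not tested. Because actins are a family of nearly identical genes, the split of reads among actin loci is uncertain.

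The class I histocompatibility locus PB.23130 had 502 of its 551 counts in IF, 34 in GA1, 11 in AF, 2 each in MM and EM and 0 in IM and FAF. The male and female palate cultures thus stood at 0 and 205 counts per 100000. Class I genes form large families whose alleles differ between individual animals, so the split of reads among class I loci is uncertain.

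**Figure D3:**
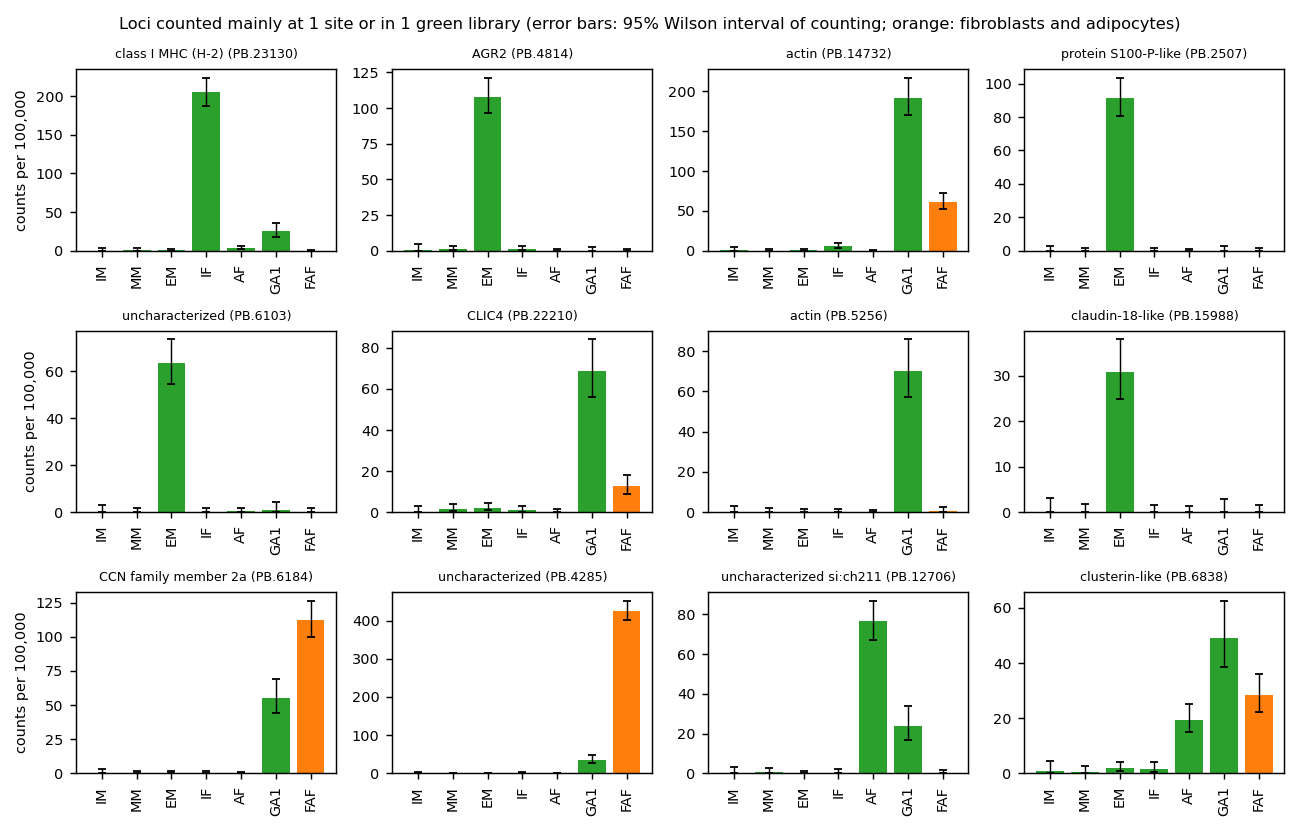
Counts per 100000 (y axis, each panel with its own scale from 0) in the 6 green cultures (green bars) and in the fibroblast and adipocyte library (orange bar) for 12 green-culture loci, with Wilson 95% intervals of counting as error bars. AGR2, S100-P-like, PB.6103 and claudin-18-like stand in EM alone, the actins, CLIC4, CCN2a and PB.4285 in GA1 with FAF high for most of them, and PB.12706 and clusterin-like in both ampullae cultures.

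The ampullae cultures were compared with the oral cultures (IM, IF and MM) across all loci, with the esophagus as a group of its own, by the edgeR quasi-likelihood test with Benjamini-Hochberg adjustment. This contrast was not used to choose the loci, but counts in the ampullae cultures helped loci to reach 50 green counts. The 2 loci called below reached that limit only through these cultures, which held 263 of 265 and 125 of 136 green counts. Their number, set beside the share of all loci, is thus shaped by the choice and is not a result about the set. All 159 passed the filter on low counts, 2 were higher in the ampullae cultures at an FDR of 0.05, beside 0.300% of all 4005 loci tested, and 0 were lower, beside 0.225% of all. At an unadjusted p under 0.05 there were 41 of the 159, beside 11.9% of all loci. DESeq2 called 2 of the 159 higher and 6 lower, beside 0.785% and 0.758% of the 3694 loci to which it gave an adjusted p. An uncharacterized protein (PB.12706, si:ch211-76l23.4) had 231 counts in AF and 32 in GA1, against 0, 1 and 1 in IM, MM and IF, and 0 in EM. The pooled ratio was 176 (exact 95% interval of counting 48.3 to 1460), and the fitted log2 fold change was 7.15 ± 0.85 (SE; edgeR adjusted p = 0.00477). Clusterin-like had 59 counts in AF and 66 in GA1, against 1, 1 and 4 in IM, MM and IF, and 5 in EM, with a pooled ratio of 27.9 (12.5 to 77.5) and a log2 fold change of 5.06 ± 0.69 (edgeR adjusted p = 0.00978). Both were higher in each ampullae culture than in every other green culture. Both calls were lost without IM (edgeR adjusted p = 0.0951 for PB.12706 and 0.169 for clusterin-like) and without MM (0.115 and 0.18), and that of clusterin-like also without IF (0.052), while the log2 fold changes stayed between 4.72 and 7.45. With AF or GA1 left out, a single ampullae culture, assumed to vary like the other groups, gave more calls over all loci as well. Without AF, 7 of 154 green-culture loci were called higher (3.31% of all loci) and 4 lower (0.752%), and without GA1, 8 of 155 were called higher (2.77%) and 21 lower (4.04%). The connective tissue markers held 0.0506% of AF and 1.26% of GA1, and FAF had 69 counts of clusterin-like; the part of these markers in the clusterin-like level was not tested. In white ampullae tissue PB.12706 had 2 counts and clusterin-like 13, where the share of the ampullae cultures would have given 45.4 and 21.6. The ampullae did not stand apart among the tissues. PB.12706 had 2.65 counts per 100000 there and 0 to 3.11 in the other tissues, and clusterin-like 17.3 there and 0 to 16.7 in the others.

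The male cultures (IM, MM, EM) were compared with the female ones (IF, AF) in the same way. None of the 141 green-culture loci that passed the filter differed by edgeR at an FDR of 0.05 (0.00% of 3131 loci overall; lowest adjusted p of a green-culture locus 0.775), 10 had an unadjusted p under 0.05 (3.86% of all loci), and DESeq2 also called 0. Without IF, when AF was the only female culture, 41 of 153 green-culture loci were called, as were 13.2% of all 3588 loci tested. Site and sex cannot be told apart in that fit, and the sites differ between the sexes except for the palate.

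Duplicated genes raise the question whether the same protein was counted at another locus. For 90 of the 159 loci (56.6%, against 61.6% of the other 2710) at least 1 other locus carried the same protein name, and 69 had no such locus. At their same-named loci, 52 of the green-culture loci found at least 3 white culture counts, and 38 found 0 to 2. Some same-named loci were themselves green-culture loci, as for PB.4041 and PB.4042, and the rule allowed these at most 2 white culture counts. The same-named loci outside the set numbered 125. In 26 of the 52 the other loci held a higher share in the white cultures than in the green ones, and in 26 a lower one. In 17 cases another locus carried not only the name but the same sterlet protein, and 9 of these had at least 3 white culture counts there.

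The 125 loci outside the set were tested in the edgeR comparison of green with white cultures. It covered all 2125 loci that passed its filter, of which 27.8% were higher and 29.0% lower in the green cultures. Of the 125 other loci 26 passed the filter, 5 were higher and 6 lower in the green cultures, so their calls were no more frequent than those of loci in general. The fit also held 32 of the green-culture loci, from which nothing is read because this contrast chose them.

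For some proteins another locus held a higher share in the white cultures than in the green ones, which counted it as well. Whether the species differ in the copy they use was not tested. The calcium channel flower homolog, a membrane protein of vesicles, had 111 green and 1 white culture counts at PB.14450. At PB.22446 it had 40 green counts (3 to 15 per culture) and 175 white ones (14 to 50 per culture), which was lower in green (log2 fold change -3.36 ± 0.56, edgeR adjusted p = 0.000125). ERGIC2-like, a cargo receptor between endoplasmic reticulum and Golgi, had 57 green and 0 white culture counts at PB.19114. At PB.13147 it had 3 to 18 counts per green culture against 23 to 49 per white culture, without overlap (log2 fold change -2.90 ± 0.36, edgeR adjusted p = 9.06e-06). A further ERGIC2-like locus, PB.7450, had more green counts than either, with 124 green and 32 white culture counts. The splicing factor SF3B3 had 77 green and 1 white culture counts at PB.18136. Its other locus PB.14981, named for the same sterlet protein, had 22 to 56 counts per green culture against 59 to 127 per white culture (log2 fold change -2.002 ± 0.31, edgeR adjusted p = 6.25e-05). With 256 green counts, PB.14981 was also the larger of the pair in the green cultures. Sec23A at PB.14751 had 371 green and 299 white counts and was also lower in green (log2 fold change -0.98 ± 0.28, edgeR adjusted p = 0.00684). With GA1 as the only green culture, these differences had adjusted p of 0.203 for the flower homolog, 0.255 for SF3B3 and 0.726 for Sec23A.

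For others the same-named locus was counted in both species without a difference past the threshold in edgeR over all cultures. CHMP6 at PB.15729 had 825 green and 228 white culture counts (edgeR adjusted p = 0.156, log2 fold change 0.54 ± 0.32), RPL15 at PB.2928 had 413 and 248 (0.115, -0.67 ± 0.35), and PHLDA2 at PB.20389 had 561 and 139 (0.0784, 0.60 ± 0.28). The PHLDA2 locus did pass with DESeq2 (adjusted p = 0.0398) and, in edgeR, without TMM (0.0475), without the filter (0.0485), without IM (0.0473) or without WS2 (0.0256). The CHMP6 locus passed without AF (0.0322). The interferon-induced N-myc-interactor-like protein, with 63 green and 0 white culture counts at PB.12110, had 600 and 145 at PB.10622 (0.108, 0.66 ± 0.34), and passed without AF (0.0238) or without the filter (0.0352). The main actin locus PB.12861 had 8847 and 4358 counts (0.622, -0.20 ± 0.33). Selenoprotein S-like, which clears misfolded proteins from the endoplasmic reticulum, had 128 green and 0 white culture counts at PB.16481, and its other locus PB.16482 was higher in green as well (log2 fold change 0.93 ± 0.36, edgeR adjusted p = 0.0395); that call was lost without EM, IF, GA1, WS2, W12 or W8, at adjusted p of 0.0515 to 0.0766.

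The eIF1b-like protein had a locus counted in the green cultures only and another counted in the white cultures only. PB.22704 had 450 green and 0 white culture counts. PB.3977 had 0 green culture counts and 19, 24, 13 and 15 in WS1, WS2, W12 and W8, with 0 in WM. It was nearly absent from white tissue, with 1 count over the tissues, and had 1 count in FAF. A locus counted in both, PB.20740, had 1095 and 215 counts (log2 fold change 0.88 ± 0.38, edgeR adjusted p = 0.0578). It passed with DESeq2 (0.0431) and, in edgeR, without TMM (0.0393), without the filter (0.00669), with the replicate block (0.021) and without MM (0.0365), GA1 (0.00597) or WS1 (0.0409).

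**Figure D4:**
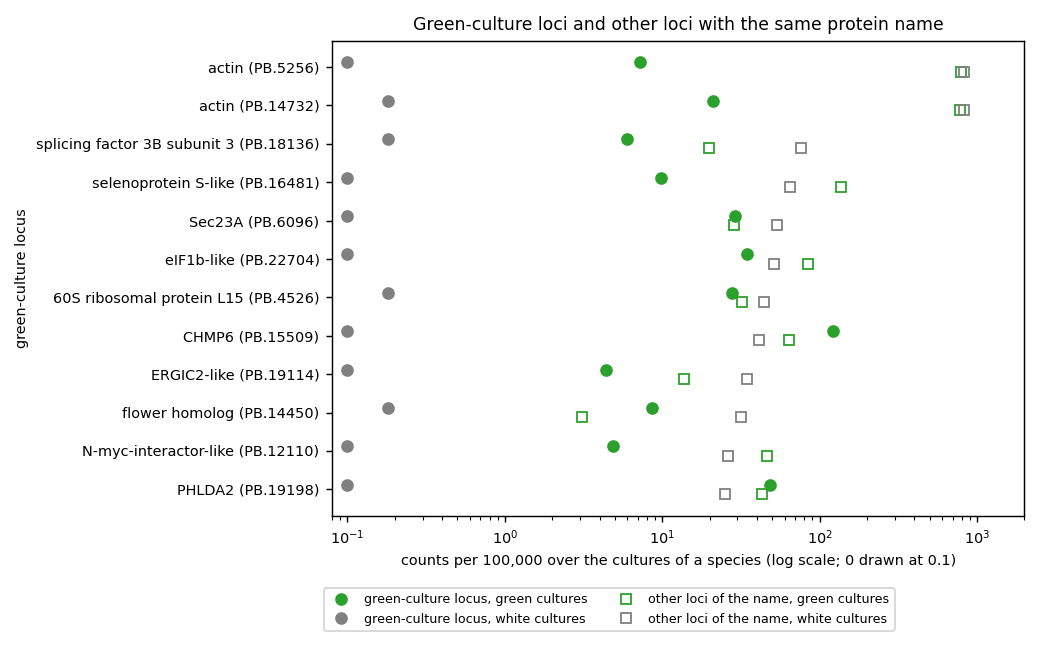
Counts per 100000 over all cultures of a species (x axis, log scale, 0 drawn at 0.1) for the 12 green-culture loci (circles) whose same-named other loci (open squares, summed) had most white culture counts, with green for green and grey for white cultures. The grey squares lie right of the green squares for SF3B3, Sec23A, RPL15, ERGIC2-like and the flower homolog, and left of them for selenoprotein S-like, eIF1b-like, CHMP6, N-myc-interactor-like and PHLDA2.

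By key words in the protein names, 57 of the 159 loci fell into at least 1 of 10 gene groups and 102 into none. Names with a receptor, kinase, phosphatase, GTPase, Ras or Rab key word made up 21 loci (13.2%, beside 8.43% of the 2869 loci with at least 50 green counts). Of these, 10 were at 0 in the tissues and 16 were counted in FAF. The key words do not make each of them a signalling protein, as the proteasomal ubiquitin receptor ADRM1-like shows. Transporters and channels made up 8 (5.03%, beside 2.65%) and uncharacterized proteins 11 (6.92%, beside 1.95%). Names with a protease or inhibitor key word made up 6 (3.77%, beside 2.68%), but 3 of these, a brain-specific angiogenesis inhibitor 1-associated protein (PB.15728), the cell cycle inhibitor CDKN2A-like (PB.27707) and RERG-like, are not named for proteases or protease inhibitors. There were 2 ribosomal proteins (1.26%, beside 3.90%), 3 mitochondrial and energy enzymes (1.89%, beside 5.02%) and 1 locus with a zinc finger, histone or transcription key word in its name (0.629%, beside 3.14%), the transcriptional coactivator YAP1 (PB.8254). These are small counts of names, and no group was tested against the other loci. No keratin was among the 4 loci of the keratin and junction group (2.52%, beside 1.19%), which were claudin-1-like, claudin-18-like, claudin-16-like (PB.18737, 47 of 61 green counts in AF) and the keratinocyte-associated transmembrane protein 2-like (PB.21991). The immune key words matched 3 loci (1.89%, beside 1.43%), the class I antigen, IRF1-like and the GTPase IMAP family member 9-like (PB.26294, 18 tissue counts). All 3 were counted in tissue, as were 57.9% of the 159 and 96.3% of the 2869. None was counted in FAF, where 76.7% and 91.5% were. These key words missed CD59-like (0 tissue counts, 1 in FAF), CD276-like (50 and 9) and N-myc-interactor-like, which was at 0 in every tissue. Names with a detoxification key word made up 2 (1.26%, beside 0.871%), both counted in FAF. They were a cytochrome P450 7A1-like protein (PB.3533) and a carbohydrate sulfotransferase 15-like protein (PB.8019). The key words cytochrome P450 and sulfotransferase do not make either a detoxification enzyme. YAP1, PB.15728, PB.27707, claudin-16-like, PB.21991, PB.26294, PB.3533 and PB.8019 are named because their groups were small or their names misleading, after their values were seen.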

How the data were processed

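Iso-Seq libraries of 18 RNA samples were analysed. Per the study's methods, reads were processed with IsoSeq3, aligned to the sterlet genome (the aligner is not given in the sources used here), filtered with Sqanti3 and named by a blastp search of translated transcripts against sterlet proteins. The deposited values are the authors' raw counts of full-length reads for 70537 transcripts, not normalized. The stated minimum was 3 supporting reads, but 33.1% of transcripts had a total of 2 counts. Protein names end at the first comma. The labels name a set of consensus transcripts for the white libraries and another for the green ones, FAF included.

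Counts were summed over each PacBio locus, the first 2 fields of the transcript name. Shares are percentages or counts per 100000 of a library's total, unnamed loci included. Counts expected at the green share are the pooled green culture share multiplied by the totals of the other libraries. Ratios of pooled counts have exact conditional 95% intervals and shares Wilson 95% intervals.

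Tests across loci used edgeR 4.0.16 (R 4.3.3) with TMM, filterByExpr defaults, glmQLFit and glmQLFTest, adjusted over all loci tested at an FDR of 0.05. DESeq2 1.42.0 was an alternative, beside no TMM, no filter, a stricter filter and each library left out. The scripts were tested on simulated data. Other work used Python 3.11.15, numpy 2.4.6, pandas 2.3.3, scipy 1.17.1 and statsmodels 0.14.6.

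The members, gene groups and marker lists were chosen with earlier results of these data known. Loci were named by these rules: the 20 with most green counts, the 10 with most tissue counts and the 5 with most in the fibroblast and adipocyte library; the 8 with most green counts among those with over 90% of them in 1 culture; those called within the green cultures; the 12 whose same-named loci had most white culture counts; and the 3 nearest each threshold. Of the loci these rules name, 1 is not reported here. Sequences and genome positions were not analysed here. Samples were grouped by the species, site and cell type on their labels. Replicate numbers did not pair the cultures: over the 5 numbers both species share, the correlation of deviations ran from -0.126 to 0.144.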

Additional observations from a re-analysis of the deposited data

Results flagged for a closer look

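Among the 42 green-culture loci that the naming rules select, 17 had a green culture that lay far from the other 5 by Dixon's criterion. The criterion flags about 1 in 20 groups of normally distributed values. These counts, from cultures of different sites, need not be so distributed, so the rate by chance is not known here. Besides, 8 of the 42 loci were named because a single culture held nearly all of their counts. Values are counts per 100000 of the library that stood apart.

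The esophagus culture EM stood apart and high for AGR2 (PB.4814, 108), S100-P-like (PB.2507, 91.3), the uncharacterized PB.6103 (63.6) and claudin-18-like (PB.15988, 30.7). The ampullae culture GA1 stood apart and high for the actins PB.14732 (192) and PB.5256 (70.2), CLIC4 (PB.22210, 68.7), CCN2a (PB.6184, 55.3), PB.4285 (35.8) and the splicing factor SF3B3 (PB.18136, 14.2), and low for RPL15 (PB.4526, 10.5). The other ampullae culture AF stood apart and high for CD59-like (PB.20545, 103) and PB.12706 (76.4), and low for alpha-N-acetylgalactosaminidase (PB.12947, 7.94). The female palate culture IF stood apart and high for the class I antigen PB.23130 (205), eIF1b-like (PB.22704, 83.2) and ADRM1-like (PB.19688, 43.2). No locus of the 17 had IM or MM as the culture that stood apart.

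Loci without a protein name were left out by the rule. Of 90 such loci with at least 50 green counts, 9 met the count limits as well. They held 1274 counts over the green cultures (53 to 252 each), 217 in the fibroblast and adipocyte library, 99 over the white tissues and 9 over the white cultures, and 1 of them was at 0 in all tissues.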

How the results depend on the processing

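The number of green-culture loci was 83 when no white culture count was allowed, 247 at a limit of 5, 298 at a minimum of 30 green counts, 62 at a minimum of 100 and 371 single transcripts. Under the other settings it stayed within 1.5 times of 159, including 143 with the limit scaled to library size, 171 when counts were summed over the sterlet protein, 114 when they were summed over the protein name, and 106 to 193 with 1 culture left out. Of the 159, 57.9% were counted in the tissues, 34% with at least 3 counts, and 50.9% to 57.2% with 1 tissue left out.

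Green and white cultures differed at 1208 loci, at 3551 without the filter on low counts, at 590 with GA1 as the only green culture and at 595 with mouth rim cultures only. The replicate block also gave 1208. Mouth rim cultures only left no call for SF3B3 at PB.14981 or Sec23A at PB.14751 (edgeR adjusted p = 0.0722 and 0.221), and no filter left none for Sec23A (0.16). Directions turned for the actin locus PB.12861 (log2 fold change -0.20 with all cultures, 0.084 without the filter, 0.26 with GA1 alone and -0.295 to 0.097 with 1 culture left out, the positive end without W8) and for eIF1b-like at PB.20740 (-0.736 with GA1 alone), neither called with edgeR and all cultures. The ampullae fit called 21 loci, 57 with DESeq2, 11 without TMM, 184 without the filter and 0 to 258 with 1 culture left out. The sex fit called 0 loci with edgeR (121 at an unadjusted p under 0.05) and 0 with DESeq2, 68 without the filter and 0 to 475 with 1 culture left out. Depth limits the tissue result most in WE1, where 1 count stands for 3.36 per 100000.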

Other observations

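Beyond the loci named above, a few loci of the set were noted after the values were seen. PINK1 (PB.28873), a kinase that marks damaged mitochondria, had 3 to 34 counts in each green culture and 26 in FAF, and 0 in every white library; its same-named loci had 25 green and 0 white culture counts. The 5-beta-cholestane-3-alpha loci PB.4041 and PB.4042, named in the data only by the start of an enzyme name, had 91 and 58 counts in EM, 44 and 16 in MM and 0 in AF, and 0 in the white cultures. The uncharacterized PB.25753 had 95 counts in FAF and 10 to 28 in each green culture, with 0 in every white library. These are values of single loci, and none was tested.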
